A study of Mus musculus with 3 samples.

Results

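Potassium, calcium and voltage-gated sodium channels are the membrane proteins that set the resting voltage of a cell and turn a change of voltage into calcium entry. The channel genes described here were taken by gene symbol: every probe whose symbol begins with Kcn, Cacn or Scn followed by a digit, together with Abcc8 and Abcc9, which encode the regulatory subunits of the ATP-sensitive potassium channel. The rule took 168 of 25697 probes, which stand for 110 of 16593 named genes. The rule reads symbols and no measured value, but the set was taken up with earlier results of these data known. Of 136 protein-coding genes that follow the same naming rule in a RefSeq gene table, the other 26 had no named probe and were not analysed here.

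RNA was measured on 3 Illumina beadchip arrays, replicates 1 to 3 of a single group. The titles call the samples induced delta cells, the somatostatin-secreting cell type of the islet, whereas the extraction text calls them induced beta cells. All 3 came from mice of the genotype Rag1-/-, which lack mature T and B cells, after purified adenovirus had been injected into the splenic lobe of the pancreas, and the series title gives day 10. The cells were sorted for Cherry fluorescence from the digested acinar fraction once the islets had been taken out. The labels name neither the gene carried by the virus, nor the promoter that drives Cherry, nor the age of the mice, nor whether animals were pooled. No control group was analysed, so every value below is a description of these 3 samples and none is a change. Nothing in the labels says that the samples came from separate animals, so their spread may be technical.

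In islet endocrine cells, closure of the ATP-sensitive potassium channel by glucose metabolism depolarises the membrane, voltage-gated sodium and calcium channels open, and the calcium that enters releases hormone granules. Voltage-gated and calcium-activated potassium channels then end each burst of activity. Leak channels with paired pore domains hold the resting voltage. Acinar cells are not electrically excitable: they release enzyme granules when calcium leaves internal stores, and their potassium channels serve mainly fluid and chloride secretion.

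A probe was taken as above background where its deposited detection p, its rank among the negative control beads of the same array, was under 0.05 on every array. A gene counted when at least 1 of its probes met this rule. By this rule 21 of 110 channel genes (19.1%) were above background, against 40.9% of all named genes. Per probe, 24 of 168 channel probes (14.3%) passed, against 33.4% of all named probes. On each single array 29 channel probes (17.3%), standing for 26 genes, were above background, against 35.6% to 37.8% of all probes. A further 12 channel genes passed on 1 or 2 arrays. Of these, 9 passed on 1 array (8.18%, against 4.92% of all genes) and 3 on 2 arrays (2.73%, against 3.82%). The other 77 (70.0%) passed on none, against 50.4% of all genes. Channel genes had slightly more probes than the average gene (1.53 against 1.45). Among genes with 1 probe, 12 of 72 channel genes (16.7%) passed, against 35.5% of all such genes. Olfactory receptor genes, which few tissues outside the nose use, passed for 19 of 1058 (1.8%).

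By ion, 16 of 82 potassium channel genes (19.5%) and 5 of 20 calcium channel genes (25.0%) were above background on all 3 arrays, and 0 of 8 sodium channel genes were. By role, 14 of 76 genes for pore-forming subunits (18.4%) and 7 of 33 genes for auxiliary subunits (21.2%) passed. Kcnrg, counted under neither role, did not pass. These shares, and those of the subfamilies below, stand beside 19.1% of all channel genes and 40.9% of all named genes. Most groups hold few genes, and their differences from these shares were not tested. The genes were spread over 22 subfamilies, of which 13 held at least 1 gene above background and 9 held none. The Kcnk family alone gave 6 of the 21 genes; without it 15 of 97 channel genes (15.5%) passed.

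**Figure D1:**
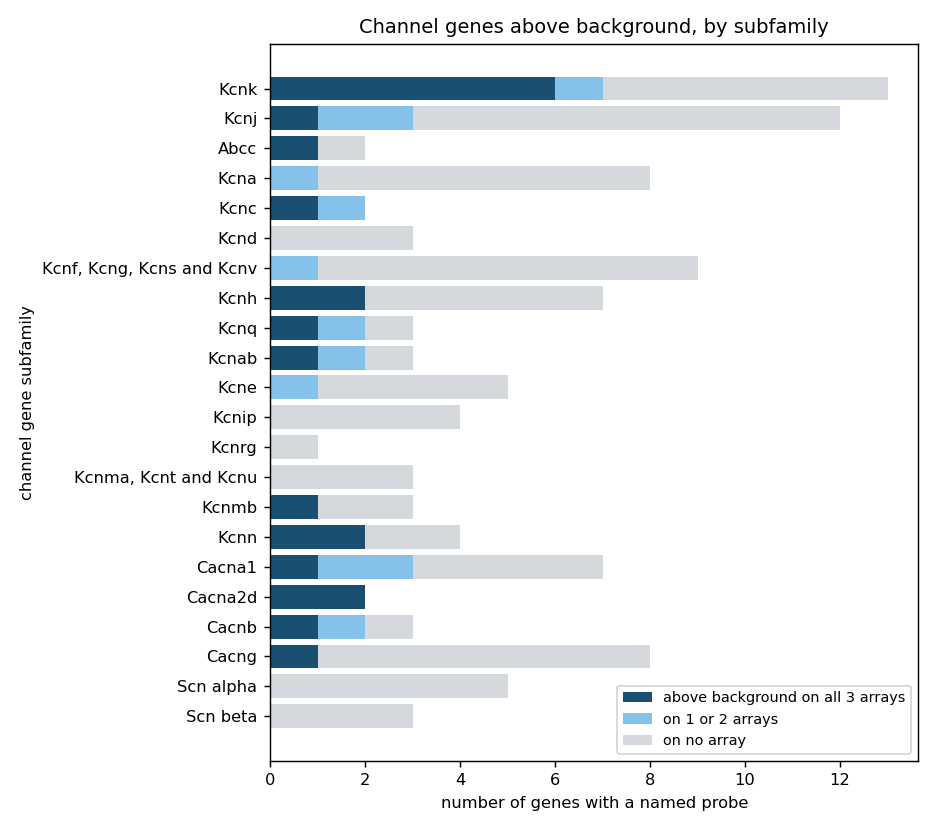
Number of channel genes with a named probe (horizontal axis) in each of 22 subfamilies (vertical axis), split into genes above background on all 3 arrays (dark), on 1 or 2 arrays (light blue) and on no array (grey). Kcnk holds 6 dark genes of 13, and both sodium channel groups hold none.

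Levels are given as log2 values after background correction and quantile normalization, for the brightest probe of a gene, in the order of replicates 1, 2 and 3. On this scale the lowest level among probes above background, called the background limit here, was 4.83, 4.77 and 4.75. In deposited intensities these limits were 73.35, 65.73 and 63.23. Probes differ in efficiency, so the level of one gene was not set against that of another. Because each array reads many cells together, few cells with much of a transcript and many cells with little of it cannot be told apart.

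The leak channels with paired pore domains, encoded by the Kcnk genes, were above background for 6 of 13 measured genes (46.2%), a share close to that of all genes. Kcnk1 encodes TWIK-1, a weakly rectifying leak channel. Its probe had deposited intensities of 737.8, 677.1 and 762.2. The levels were 9.53, 9.28 and 9.45 (9.42 ± 0.13, SD, n = 3), each more than 4 log2 units over the limit of its array. Kcnk5 encodes TASK-2, a leak channel opened by alkaline pH, and read 8.47, 8.36 and 8.42 (8.42 ± 0.057, SD, n = 3). For Kcnk6, which encodes TWIK-2, a relative of TWIK-1, the levels were 7.68, 7.70 and 7.84 (7.74 ± 0.086, SD, n = 3). Kcnk3 encodes TASK-1, a leak channel closed by acid, and stood at 6.72, 6.56 and 6.66 (6.65 ± 0.079, SD, n = 3). Each of these 4 genes lay at least 1 log2 unit over the limit on every array and had a signal above all negative controls on all 3.

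The other Kcnk genes lay nearer to background. Kcnk13 encodes THIK-1, a leak channel inhibited by halothane, and read 5.28, 5.74 and 5.65 (5.55 ± 0.24, SD, n = 3). It was lowest on replicate 1 with quantile normalization and with median scaling. The levels of Kcnk2, which encodes TREK-1, a leak channel opened by stretch and lipids, were 5.22, 4.94 and 5.09 (5.08 ± 0.14, SD, n = 3). Its highest detection p was 0.0175, so it no longer passed at a threshold of 0.01, nor after Benjamini-Hochberg adjustment of each array's detection p-values (0.0527). Kcnk12 passed on replicate 3 alone (4.30, 4.45 and 4.92). Kcnk4, Kcnk7, Kcnk9, Kcnk10, Kcnk15 and Kcnk18 passed on no array. Kcnk16, the family member best known from islets, had no named probe.

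Of the ATP-sensitive potassium channel, only the regulatory subunit SUR1 could be followed. Abcc8, its gene and the target of sulfonylurea drugs, had deposited intensities of 82.2, 79.74 and 69.26 against limits of 73.35, 65.73 and 63.23. The levels were 5.23, 5.34 and 5.01 (5.19 ± 0.17, SD, n = 3). All 3 arrays were above their limit, by 0.26 log2 units or more, and replicate 3 was lowest under quantile normalization and median scaling. The highest detection p was 0.0138, so at 0.01 the gene no longer passed, while it did with adjusted detection p-values. Kcnj11, which encodes the pore of that channel in islet cells, had no named probe. The vascular and muscle counterparts, Abcc9 for SUR2 (4.72 ± 0.058, SD, n = 3, 3 probes) and Kcnj8 for its pore (4.30 ± 0.032, SD, n = 3), were above background on no array.

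Other inward rectifiers were mostly at background, with 1 of 12 measured Kcnj genes (8.33%) above it on all 3 arrays. That gene, Kcnj15, encodes an inward rectifier of kidney epithelium and read 5.13, 5.42 and 5.41 (5.32 ± 0.16, SD, n = 3). It passed neither at 0.01 (highest detection p 0.0163) nor with adjusted detection p-values (0.0536). Kcnj4 passed on replicate 2 alone (4.81, 4.81 and 4.64) and Kcnj16 on replicate 1 alone (4.86, 4.46 and 4.60). The genes of the G protein-gated rectifiers through which somatostatin receptors quiet excitable cells, Kcnj3 (4.54 ± 0.17), Kcnj5 (4.36 ± 0.042), Kcnj6 (4.53 ± 0.044, 4 probes) and Kcnj9 (4.31 ± 0.041; all SD, n = 3), passed on no array. The same held for Kcnj1, Kcnj2, Kcnj12 and Kcnj14.

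**Figure D2:**
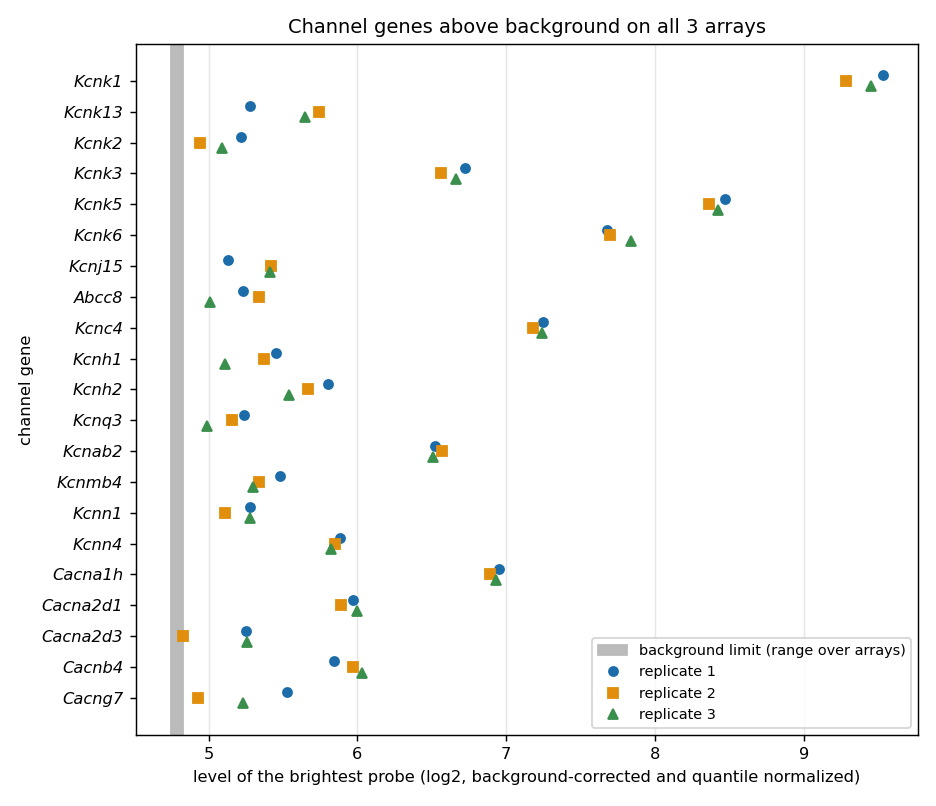
Level of the brightest probe (log2, horizontal axis) on replicates 1, 2 and 3 (circle, square, triangle) for the 21 channel genes above background on all 3 arrays, ordered by subfamily; the grey band spans the background limits of the arrays, 4.75 to 4.83. Each of the 10 genes at least 1 log2 unit over the limit has its 3 points close together (SD 0.13 or less), and Cacna2d3 on replicate 2 lies within the band, at 4.83 against the limit of 4.77 of its own array.

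Voltage-gated potassium channel pores were above background for 4 of 32 measured genes (12.5%), against 19.1% of all channel genes and 40.9% of all named genes. Kcnc4 encodes a fast-inactivating channel of the Shaw type. Its deposited intensities were 190.1, 186.1 and 192.9, and its levels 7.25, 7.18 and 7.24 (7.22 ± 0.038, SD, n = 3), at least 2.41 log2 units over the limit. Kcnh2 encodes the ERG1 channel, which repolarises heart muscle and also shapes firing in islet cells, and read 5.80, 5.67 and 5.54 (5.67 ± 0.13, SD, n = 3). Its relative Kcnh1, for the EAG1 channel, stood at 5.45, 5.37 and 5.11 (5.31 ± 0.18, SD, n = 3). Both were lowest on replicate 3 under quantile normalization and median scaling. Kcnq3, which encodes a subunit of the neuronal M-current, read 5.24, 5.16 and 4.99 (5.13 ± 0.13, SD, n = 3) and was lost at a detection threshold of 0.01 (highest p 0.015).

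The rest of the voltage-gated pores did not pass on all arrays. None of 8 Kcna genes, for channels of the Shaker type, did, Kcna1 (4.42 ± 0.038, SD, n = 3) included; Kcna10 passed on replicates 1 and 3 (4.95, 4.63 and 4.93). None of 3 Kcnd genes, for rapidly inactivating channels, passed on any array. Among 9 Kcnf, Kcng, Kcns and Kcnv genes, for subunits that form channels only with partners, Kcns3 passed on replicate 2 alone (4.69, 4.81 and 4.42). Kcnq1, a channel of secretory epithelia and heart, passed on replicate 2 alone (4.62, 5.02 and 4.61), and Kcnc1 on replicate 1 alone (4.86, 4.54 and 4.51). Kcnq5 and the 5 remaining Kcnh genes, Kcnh6 (4.47 ± 0.061, SD, n = 3) among them, passed on no array. Kcnc2 was not analysed here.

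The Kcnab, Kcne and Kcnip genes encode subunits that accompany voltage-gated potassium pores. Of 13 measured genes, these and Kcnrg together, Kcnab2 alone was above background on all 3 arrays. Kcnab2 encodes a cytosolic beta subunit that binds Shaker-type pores, and its 1 probe read 6.52, 6.57 and 6.51 (6.53 ± 0.032, SD, n = 3). Its relative Kcnab1 passed on replicate 1 alone (4.95, 4.73 and 4.61), and Kcnab3 on none. Kcne1, the small partner of the Kcnq1 pore, passed on replicates 1 and 2 (4.94, 4.97 and 4.47, 4 probes). The 4 other Kcne genes, the 4 Kcnip genes, Kcnip1 (4.30 ± 0.073, SD, n = 3) included, and Kcnrg passed on no array.

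Calcium-activated potassium channels were above background for 2 pore genes and 1 auxiliary gene. Kcnn4 encodes the intermediate-conductance channel of epithelia, red cells and leukocytes. Its levels were 5.88, 5.85 and 5.82 (5.85 ± 0.030, SD, n = 3), among the narrowest spreads of the 21 genes. Kcnn1, for a small-conductance channel, read 5.28, 5.11 and 5.28 (5.23 ± 0.096, SD, n = 3). Kcnn2 (4.56 ± 0.067, 2 probes) and Kcnn3 (4.28 ± 0.048; both SD, n = 3), for the other small-conductance channels, passed on no array. Kcnmb4 encodes an auxiliary subunit of the large-conductance channel and stood at 5.48, 5.34 and 5.30 (5.37 ± 0.093, SD, n = 3). The pore gene of that channel, Kcnma1 (4.47 ± 0.065, SD, n = 3, 1 probe), passed on no array. The same held for the auxiliary genes Kcnmb1 and Kcnmb2 and for the related pore genes Kcnt1 and Kcnu1.

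For voltage-gated calcium channels, 1 of 7 measured pore genes (14.3%) was above background on all 3 arrays. Cacna1h encodes a T-type channel, which opens at low voltage. Its deposited intensities were 162.7, 159.4 and 162.7 and its levels 6.95, 6.89 and 6.93 (6.92 ± 0.031, SD, n = 3), at least 2.12 log2 units over the limit. Cacna1a, the pore of the P/Q-type channel, passed on replicates 2 and 3 (4.79, 5.31 and 4.93); without replicate 1, whose detection p was 0.0602, it passed on both arrays. Cacna1f, the retinal L-type pore, passed on replicate 3 with 1 of its 2 probes. The islet L-type pores Cacna1c (4.56 ± 0.070, 4 probes) and Cacna1d (4.51 ± 0.19, 2 probes), the N-type pore Cacna1b (4.44 ± 0.065, 3 probes) and the T-type pore Cacna1g (4.37 ± 0.093, 3 probes; all SD, n = 3) passed on no array. Cacna1e, the R-type pore, had no named probe.

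Auxiliary calcium channel subunits gave the other 4 calcium channel genes. Cacna2d1 encodes an extracellular alpha2-delta subunit, the binding site of gabapentin, and read 5.97, 5.89 and 6.0 (5.95 ± 0.060, SD, n = 3). Cacna2d3, a second alpha2-delta gene, stood at 5.25, 4.83 and 5.26 (5.11 ± 0.24, SD, n = 3). Replicate 2 was lowest for Cacna2d3, 0.07 log2 units over its limit, and the gene passed neither at 0.01 (highest detection p 0.0301) nor with adjusted detection p-values (0.0834). Cacnb4 encodes a cytosolic beta subunit that brings the pore to the membrane; its levels were 5.84, 5.97 and 6.03 (5.95 ± 0.097, SD, n = 3). Cacng7, a gamma subunit gene better known as a partner of glutamate receptors, read 5.53, 4.93 and 5.23 (5.23 ± 0.30, SD, n = 3). Its range of 0.60 log2 units was the widest of the 21 genes with quantile normalization (0.52 with median scaling, where that of Kcnk13 was 0.54). It was lost at 0.01 (highest p 0.0188) and with adjustment (0.0562).

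The remaining auxiliary calcium channel genes were at background on most arrays. Cacnb1, the beta subunit of skeletal muscle, passed on replicate 3 alone (4.72, 4.64 and 4.93), and Cacnb2 (4.54 ± 0.12, SD, n = 3) on none. Cacng4 (4.33 ± 0.031, SD, n = 3) and 6 other Cacng genes passed on no array. Cacna2d2 and Cacnb3 had no named probe.

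Sodium channel genes, taken by symbol, were above background on no array, for 5 pore genes and 3 beta subunit genes. Scn8a, a pore of neurons, read 4.62, 4.67 and 4.68, below every limit. Scn3b, a beta subunit gene, was at 4.27 ± 0.039 (SD, n = 3, 2 probes). Over all sodium channel probes the mean levels ran from 4.21 to 4.66. Scn1a, Scn7a, Scn10a, Scn11a, Scn2b and Scn4b completed the measured set. The sodium channel genes best known from islet cells, Scn3a and Scn9a, had no named probe, nor had Scn2a, so these zeros do not cover them.

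Whether a channel gene passed depended on which of its probes was read. Of 38 channel genes with more than 1 probe, 9 were above background, and each of the 9 also had a probe that was not; among all genes the corresponding share was 80.3% of 2596. Kcnc4 had a probe at 7.22 and another at 4.32. For Kcnk5 the 3 probes lay at 8.42, 5.78 and 4.52, and for Kcnk6 at 7.74, 5.07 and 4.30, all annotated to 1 transcript per gene. Kcnh2 had 2 probes above background, at 5.67 and 5.59, and the other at 4.54. Cacnb4 had 1 probe of 3 above background, at 5.95, with the others at 4.44 and 4.26. Kcnj15 passed with the probe annotated to the transcript NM_001039057, while both probes annotated to NM_019664 were at 4.37 or lower. A probe at background therefore did not show that its gene was silent, and 55 of the 77 channel genes above background on no array rested on a single probe. Which of 2 disagreeing probes reads its gene correctly was not tested. Of the 21 genes above background, 12 likewise rested on 1 probe.

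**Figure D3:**
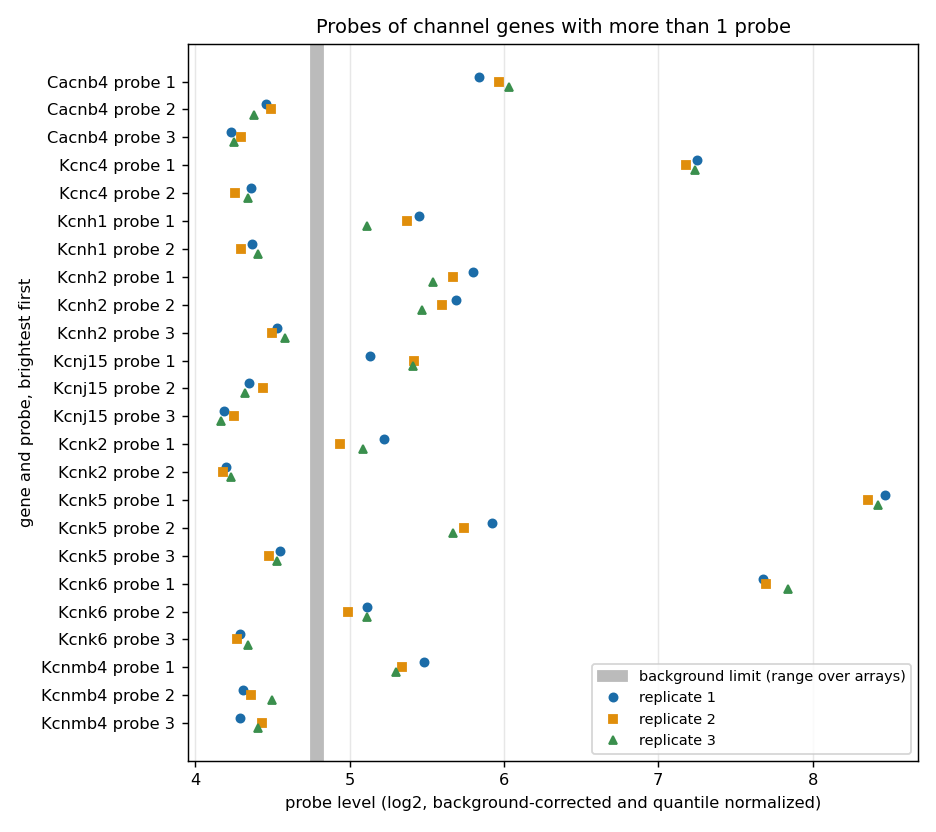
Level (log2, horizontal axis) of every probe of the 9 channel genes above background on all 3 arrays that have more than 1 probe (vertical axis, brightest probe first), on replicates 1, 2 and 3 (circle, square, triangle), with the grey band at the background limits of 4.75 to 4.83. Each gene has at least 1 probe to the right of the band and at least 1 to its left; Kcnh2, Kcnk5 and Kcnk6 have 2 to the right.

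Spread between the arrays followed distance from background. The 10 genes at least 1 log2 unit over the limit on every array (Kcnk1, Kcnk3, Kcnk5, Kcnk6, Kcnc4, Kcnab2, Kcnn4, Cacna1h, Cacna2d1 and Cacnb4) had SDs of 0.03 to 0.13, with a median of 0.058. In the 11 nearer genes the SDs ran from 0.093 to 0.30, with a median of 0.16. A gene's lowest array set its group, so a wide spread itself could place a gene among the nearer ones. Over the 24 channel probes above background the median SD was 0.104, against 0.0871 for all 8015 named probes above background. With median scaling the order was reversed, at 0.0958 against 0.116. With quantile normalization and mean levels under 5.5, the medians were 0.151 for 10 channel probes and 0.123 for 1736 probes of all genes. At or over 5.5 they were 0.083 and 0.0797. Of the 24 channel probes, 12 had a signal above all negative controls on every array, against 72.4% of the 8015 named probes above background.

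Genes that share calcium and voltage handling with the channels, but lie outside the naming rule, were above background for 26 of 46 measured genes (56.5%), against 40.9% of all genes. That count was 21 (45.7%) at a detection p of 0.01, against 35.4% of all genes. With Benjamini-Hochberg adjustment within arrays it was 23 (50%), against 36.8% of all genes. The 10 genes with the highest levels come first. For calcium stores and their filling these were Atp2a3 (9.29 ± 0.095) and Atp2a2 (8.63 ± 0.16), the calcium pumps of the endoplasmic reticulum, Orai1 (8.07 ± 0.16), the store-operated entry channel, and Tpcn1 (8.48 ± 0.063; all SD, n = 3), an endolysosomal cation channel. Slc8b1, the mitochondrial sodium-calcium exchanger, read 9.35 ± 0.067, and P2rx1, an ATP-gated cation channel, 8.83 ± 0.12 (SD, n = 3). Of genes for chloride and sodium transport, Slc12a2, the chloride-loading cotransporter, stood at 10.49 ± 0.12, Clcn3 at 9.0 ± 0.23, and the sodium pump beta subunits Atp1b3 and Atp1b1 at 9.52 ± 0.11 and 9.36 ± 0.024 (SD, n = 3). Some of these 10 genes also had a probe that did not pass: Slc12a2 passed with 2 of 4 probes, and Atp2a3, Tpcn1 and Clcn3 with 2 of 3. Hcn2 (4.94 ± 0.050) and Hcn3 (5.41 ± 0.17), for pacemaker channels, and Trpm2 (5.45 ± 0.17) and Trpm4 (5.05 ± 0.10), for calcium-regulated cation channels, passed on all 3 arrays. Of these, Hcn2 and Trpm4 were lost at a detection p of 0.01. Trpm5 (4.35 ± 0.084) and Slc2a2, the glucose transporter of beta cells (4.46 ± 0.093; all SD, n = 3), passed on none. Other calcium genes of the list went both ways, and are named after their values were seen. Itpr2 (mean level 7.38), Tpcn2 (6.76), Itpr3 (6.75), Slc8a1 (6.53) and Trpv6 (6.44) passed on all 3 arrays. So did Stim1 (5.53), Atp2b4 (5.26) and Orai3 (4.99), nearer to background. Ryr2, Ryr3, Orai2, Mcu, Trpc1, Atp2b1 and Atp2b2 passed on no array, and Ryr1 passed on replicates 2 and 3 alone.

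**Figure D4:**
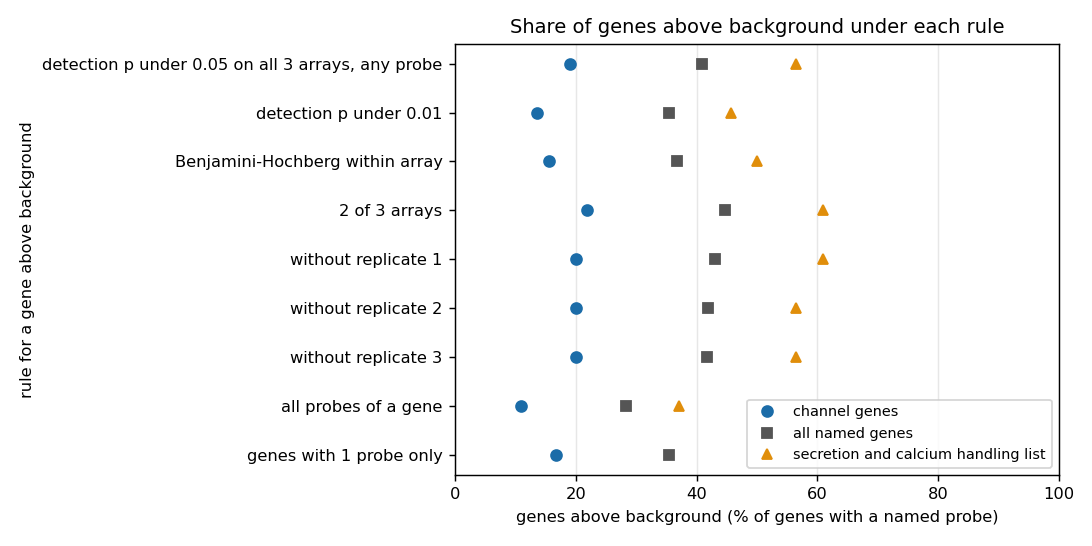
Share of genes with a named probe that were above background (%, horizontal axis) under each rule tried (vertical axis), for channel genes (circles), all named genes (squares) and the secretion and calcium handling list (triangles, not computed for genes with 1 probe). The circles lie between 10.9% and 21.8%, left of the square in every row.

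Markers of several cell types were above background, so the cells in which a channel transcript lay are not shown. On all 3 arrays 6 of 6 acinar genes and 3 of 4 delta cell genes (Sst, Hhex and Rbp4, with Ghsr at background) passed. So did 3 of 5 beta cell genes, 2 of 3 alpha cell genes, 3 of 5 duct genes and 2 of 3 macrophage genes, against 40.9% of all named genes. Of 4 endothelial genes only Plvap (6.44 ± 0.090, SD, n = 3) passed, with Pecam1, Cdh5 and Kdr at background. Of 5 mesenchymal and smooth muscle genes, Acta2 (5.86 ± 0.047) and Col3a1 (5.54 ± 0.042; both SD, n = 3) passed, and Col1a1, Pdgfrb and Myh11 did not. Of 4 Schwann or neuronal genes Mbp (7.83 ± 0.061, SD, n = 3) passed, and S100b, Tubb3 and Elavl4 did not. Probes of some markers disagreed: Mbp and Lyz2 passed with 1 of 3 probes, and Irx2 and Col3a1 with 1 of 2. Adgre1 passed with 2 of 3 and Acta2 with 3 of 4. Of 4 T or natural killer cell genes Cd3e (6.89 ± 0.24, SD, n = 3) passed, and Cd3g, Nkg7 and Ncr1 were at background on all arrays. The summed deposited intensity of each list, which rests on different probes and is not compared between lists, ran over the arrays from 89075 to 91863 for acinar, from 14406 to 15921 for delta cell and from 2904 to 3081 for beta cell markers. It ran from 737 to 824 for alpha cell, from 636 to 671 for duct and from 1422 to 2106 for macrophage markers. For endothelial, mesenchymal, Schwann or neuronal, and T or natural killer markers the sums ran from 291 to 314, 328 to 368, 419 to 450 and 301 to 359. All sums include probes at background and are not background-corrected, so much of the low ones is background. On replicate 1, Cd3g, Nkg7 and Ncr1, all at background, added 57.81, 63.28 and 58.59 to the 178.9 of Cd3e. The part of any of these cell types in the channel levels was not tested.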

How the data were processed

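Total RNA of 3 samples of 1 group was read on Illumina MouseRef-8 v2.0 beadchips, per the labels' protocols. For each probe the authors deposited an average bead intensity on a linear scale, with the p-value of its detection, per the file headers. The sources used here name no scanner software. The deposited intensity columns share a mean of 211.8 while their medians differ (65.91, 59.47 and 57.22), and steps in the detection p-values imply 798 negative controls per array. A second deposited table holds processed intensities, whose ranks are those of that array's scanner intensities (Spearman's rho 1) and which share 1 distribution; its target is unknown.

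Intensities were corrected by normexp with negative controls inferred from the detection p-values (offset 16), quantile normalized and taken to log2 (neqc, limma 3.58.1, R 4.3.3), after a check on simulated arrays. A platform annotation named 23978 probes with 1 symbol and left 1719 unnamed; 23962 matched the RefSeq table of GRCm38.p6 by Entrez identifier, with 0 symbols changed. Genes take their brightest probe. Across probes above background, Pearson's r between arrays was 0.995 or 0.996, and at most 1 intensity was identical between arrays, so the 3 were counted as separate. Arrays' number limits the precision.

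With 1 group, no test between groups was made; detection was the only test. Named were all channel genes above background on any array, 47 islet channel genes (35 of them measured) and, of the secretion and calcium handling list, the 10 with the highest levels and Slc2a2, Hcn and Trpm genes. Some genes of these lists are not reported here. The members and lists were chosen with earlier results of these data known. Alternatives varied the detection rule, the background correction, the scaling and the arrays used.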

Additional observations from a re-analysis of the deposited data

How the results depend on the processing

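Of 110 channel genes, 21 were above background, against 40.9% of all genes. The count was 15 at a detection p of 0.01 (all genes 35.4%) and 17 with Benjamini-Hochberg adjustment within arrays (all genes 36.8%). With 2 of 3 arrays sufficient it was 24 (all genes 44.7%), and without any 1 replicate 22 (all genes 41.7% to 43.1%). By construction, these looser rules can only keep or raise the count. It fell to 12 when all probes of a gene had to pass, where 28.3% of all genes passed, and to 12 of 72 with genes of 1 probe only, chosen after seeing the data; both leave out, by construction, the 9 genes with mixed probes. With all probes required, subfamilies with a gene above background fell from 13 to 8 and the secretion and calcium handling list from 26 to 17 genes. The probe count ran from 17 (10.1%) to 27 (16.1%), while the share of all named probes ran from 28.5% to 37%. The median level of the 21 genes (5.67) was 5.66 with median scaling, 5.69, 5.67 and 5.73 without replicates 1, 2 and 3, 6.41 with an offset of 50, 6.51 without background correction, 6.51 in the authors' values and 5.26 as the mean of probes; larger offsets and uncorrected background raise low values by construction. The median SD of channel probes (0.104, all probes 0.0871) was 0.0652 with an offset of 50 (all probes 0.0636) and 0.0674 in the authors' values (all probes 0.0642). Without 1 replicate it was 0.0849 to 0.101 (all probes 0.065 to 0.0734). Channel probes had the lower median with median scaling (0.0958, all probes 0.116) and without a filter (0.0688, all probes 0.0715). Without background correction the medians were 0.0605 and 0.0608. Which set spread more thus depended on the processing. Median scaling left a range of 0.157 log2 units between the arrays' medians over all probes above background, and the highest array changed for 8 of 21 genes: replicate 1 was highest for 15 of 24 channel probes with quantile normalization and for 6 with median scaling, against 37.5% and 11.4% of all named probes above background. The cause was not tested. No paired analysis was possible because there is 1 group. Signal over background limits the 11 genes within 1 log2 unit of the limit, and a probe at background sets no upper bound on its gene.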
